A study of Caenorhabditis elegans with 24 samples.

Results

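The comparison set translated mRNA, the mRNA bound to polysomes, of *daf-2;rsks-1* worms fed ad libitum (AL) against translated mRNA of wild-type N2 worms under dietary restriction (DR). Its members are 8 libraries of the 24 in the series, 4 of each group, taken by their labelled strain, diet and mRNA fraction. All were whole *C. elegans*, raised at 20 °C on OP50 bacteria. From day 1 of adulthood the AL worms received food at a log10 of 11 CFU and the DR worms at a log10 of 9 CFU, as the labels give it, whereas the study's methods give the density of AL for both diets. Polysome profiling followed after 4 days on these plates, and the fraction kept was mRNA carrying at least 2 ribosomes, from which polyA libraries were made with an unstranded kit. The study's methods add carbenicillin and FUdR, which keeps eggs from developing, to AL and DR plates alike, and they do not say separately how the mutant was kept. The alleles of *daf-2* and *rsks-1* are not given in the sources used here. Because strain and diet both differ between the groups, their parts in any difference cannot be told apart. The remaining libraries were 4 of translated mRNA from N2 on AL and 12 of total mRNA, 4 for each of the same 3 kinds of worm. In whole worms, fewer cells of a type and less RNA per cell cannot be told apart.

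*daf-2* encodes the insulin/IGF-1 receptor of *C. elegans*, and *rsks-1* encodes ribosomal S6 kinase, which acts downstream of TOR, the kinase that couples nutrients to protein synthesis. Loss of *daf-2* frees the FOXO transcription factor DAF-16 to enter nuclei, where it raises stress defence genes. Lower insulin signalling, lower S6 kinase activity and DR each extend life span in worms. On polysomes an mRNA is being read by several ribosomes, so its level there reflects both how much of the mRNA exists and how much of it is loaded. Under DR worms draw on stored fat and lower the rate of egg laying, and the intestine, which stores that fat and makes yolk, is their main organ of digestion and metabolism.

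Levels are given as CPM, counts per library total scaled to a common size and divided by a composition factor that the authors computed for each library. The *daf-2;rsks-1* libraries held 11768497 to 14710740 reads on genes and the DR libraries 7960544 to 10012008. Spearman's correlation over genes was at least 0.991 within either group and at most 0.860 between them. Replicate 1 of *daf-2;rsks-1* lay farther from its group than the other 3: its log2 values had an SD of 0.174 against the mean of the others, which for the other 3 was 0.0884 to 0.116. Its deviations followed exon length across genes (Pearson's r = -0.67, a description across genes of 1 library), and 0 genes in it deviated more than 2-fold. Results are given with all libraries, and counts without that library stand beside them where they matter. The rRNA genes, chiefly *F31C3.9*, took 4.45% ± 1.76 (SD, n = 4) of the reads in *daf-2;rsks-1* and 15.9% ± 3.87 (SD, n = 4) under DR. That difference of -11.4 percentage points gave an exact two-sided permutation p of 0.02857, the smallest that 4 against 4 libraries allow. The composition factors differed too, at 1.102 to 1.156 in *daf-2;rsks-1* and 0.808 to 0.881 under DR. Translated mRNA of N2 on AL had rRNA shares of 1.88% to 7.77% and factors of 0.893 to 0.926. The part of rRNA in the factors was not tested.

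The labels were checked on 5 genes. *rsks-1* was at 11.3, 17.4, 14.7 and 13.99 CPM in the 4 *daf-2;rsks-1* libraries and at 63.1, 62.7, 64.9 and 57.0 CPM under DR, so every mutant library was below every DR library (log2 difference -2.09 ± 0.075, SE; adjusted p = 1.94e-25, limma). *daf-2* stood at 32.5, 39.1, 47.1 and 42.5 CPM in the mutant and 27.3, 29.0, 29.3 and 27.4 CPM under DR (log2 0.49 ± 0.070, adjusted p = 4.64e-08, under 2-fold), and the level of its transcript does not test a change in the protein. *daf-16*, the FOXO factor, measured 151, 174, 188 and 178 CPM in the mutant against 163, 167, 173 and 161 CPM under DR, and the difference did not pass the test (log2 0.05 ± 0.043, adjusted p = 0.246). Among its known targets, the metallothionein *mtl-1* had 1049.9, 890.3, 858 and 919 CPM in *daf-2;rsks-1* and 102, 87.4, 90.3 and 92.0 CPM under DR. The manganese superoxide dismutase *sod-3* had 59.6, 52.9, 52.3 and 49.5 CPM and 3.64, 4.65, 2.47 and 3.77 CPM in the same order. The log2 differences of these targets were 3.31 ± 0.063 and 3.73 ± 0.13. The groups did not overlap in either gene, nor in 72.3% of all genes tested.

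Over all genes, translated mRNA differed widely between *daf-2;rsks-1* and DR. A gene was called when the adjusted p of limma was under 0.05 and the difference at least 2-fold. Of 8345 coding genes tested, 719 (8.62%) were called higher in *daf-2;rsks-1* and 694 (8.32%) lower. More than 4-fold separated the groups for 187 of the higher and 124 of the lower genes. At any fold, 6939 genes (83.2%) had an adjusted p under 0.05, and for 6035 (72.3%) the 4 values of one group all lay beyond those of the other. The median log2 difference over all genes was 0.01, and the median SE of a gene was 0.061. A log2 difference is on the scale of CPM plus 0.5, which understates the change of genes with low values. A gene entered the test by its mean over all 24 libraries, so some entered only through the group where they were high: 128 of the genes called higher averaged under 8 CPM without the *daf-2;rsks-1* libraries, and 101 of those called lower did so without the DR libraries. Without replicate 1 of *daf-2;rsks-1*, 746 genes were called higher and 722 lower. The scaling of the libraries matters more: with plain CPM, which leaves out the composition factors, the median over all genes moved to 0.42, and 1538 genes were called higher and 323 lower. TMM factors computed over coding genes moved the median to 0.11 and gave 858 higher and 589 lower, that is 59.3% of calls higher against 50.9% with the deposited scaling.

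**Figure D1:**
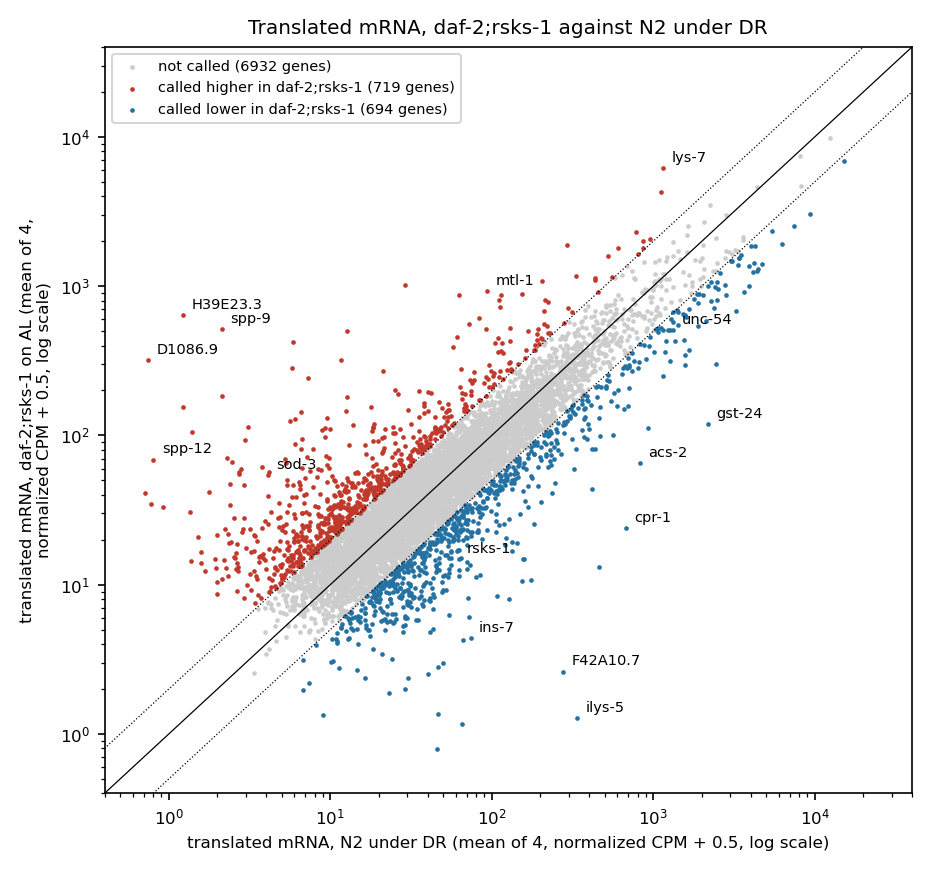
Mean level of 8345 genes in translated mRNA, N2 under DR on the x axis and *daf-2;rsks-1* on AL on the y axis, in CPM plus 0.5 on log scales, with 1 point per gene. The solid line marks equal levels and the dotted lines a 2-fold difference; red points are the 719 genes called higher and blue points the 694 called lower, and *H39E23.3*, *D1086.9* and *spp-9* lie farthest above the line and *ilys-5* farthest below it.

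Of the 12 largest increases, 9 were of genes that averaged under 2 CPM on polysomes of DR worms. *H39E23.3* had 680.3, 645, 630.4 and 589.5 CPM in the 4 *daf-2;rsks-1* libraries and 0.875, 0.340, 0.871 and 0.808 CPM under DR, a log2 difference of 9.05 ± 0.13 (SE). *D1086.9* followed with 322, 324, 320.1 and 313 CPM against 0.292, 0, 0.145 and 0.539 CPM (log2 8.80 ± 0.18). Both were as low in AL worms, at 0.597 ± 0.0427 and 0.401 ± 0.241 CPM (SD, n = 4), so only the mutant libraries were high among the translated pools. The saposin-like gene *spp-9*, of a family of small membrane-active proteins, reached 587, 493, 485 and 499.7 CPM in the mutant and 2.48, 0.567, 2.03 and 1.48 CPM under DR (log2 8.01 ± 0.20). *spp-12*, of the same family, rose from 0.292, 0.227, 0.290 and 0.404 CPM under DR to 81.8, 62.2, 62.6 and 66.6 CPM (log2 6.42 ± 0.16). Saposin-like proteins of worms include pore-forming antimicrobial proteins of the intestine. *icmt-1*, named for an isoprenylcysteine carboxyl methyltransferase, was nearly constant across mutant libraries, at 155, 155, 149 and 155 CPM, and stayed under 1 CPM under DR, at 0.583, 0.680, 0.726 and 0.943 CPM (log2 6.97 ± 0.12).

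A pair of protease genes was among the 12. *cpr-2*, a cathepsin B-like cysteine protease gene, had 294, 278, 271 and 287 CPM in *daf-2;rsks-1*, 3.79, 3.86, 6.53 and 6.87 CPM under DR and 0.764 ± 0.302 CPM under AL (log2 between mutant and DR 5.66 ± 0.14). *asp-18*, of the aspartyl protease family, had 36.1, 35.1, 32.6 and 33.8 CPM against 0, 0.680, 0 and 0.404 CPM (log2 5.601 ± 0.20). Neither gene's groups overlapped, which the choice of the 12 required. The cuticle collagen *col-183* was at 129, 101, 91.1 and 102 CPM in the mutant and 1.31, 0.567, 1.31 and 0.404 CPM under DR (log2 6.30 ± 0.14), though reads over 124 of its exon bases may come from *F02D10.10* on the other strand. *F55G11.4*, of the CUB-like family, differed in another way: it was high in AL too, at 313 ± 7.87 CPM, and low under DR only, at 13.99, 11.8, 11.8 and 11.5 CPM, against 519, 491, 487 and 509 CPM in the mutant (log2 5.30 ± 0.060). *C54C8.12*, *F56D6.9* and *ZK355.3* complete the 12, with log2 differences of 6.43, 6.19 and 5.88. *F56D6.9* shares 237 exon bases with *oac-21* on the same strand. DR reads were few for *ZK355.3*, *D1086.9*, *asp-18* and *spp-12*, at 6, 7, 9 and 9 over the 4 libraries, so the size of these 4 log2 values depends on the pseudocount: between pseudocounts of 1 and 0.1 CPM that of *D1086.9* ran from 8.03 to 10.16.

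The 12 largest decreases included a lysozyme gene, a pair of cathepsin genes, a glutathione transferase gene and an insulin-like peptide gene. *ilys-5*, an invertebrate-type lysozyme gene, had 0.795, 1.04, 0.606 and 0.666 CPM in *daf-2;rsks-1* and 333, 356, 347 and 317 CPM under DR, a log2 difference of -8.06 ± 0.069 (SE; adjusted p = 9.69e-46). AL worms had 307 ± 5.83 CPM, which differed from DR by a log2 of 0.14. *F42A10.7* came next with 2.75, 2.14, 1.94 and 1.63 CPM against 276, 271, 286 and 269.8 CPM, and AL lay between, at 23.2 ± 1.61 CPM (log2 between mutant and DR -6.74 ± 0.096). The cathepsin B-like genes *cpr-4* and *cpr-1* moved opposite to *cpr-2*. *cpr-4* had 13.7, 12.001, 12.7 and 11.9 CPM in the mutant and 465, 465, 477 and 432 CPM under DR (log2 -5.14 ± 0.055). *cpr-1* had 25.1, 23.4, 21.4 and 23.5 CPM and 675, 695, 709 and 634 CPM in that order (log2 -4.83 ± 0.051). The glutathione transferase *gst-24*, of a family that conjugates toxins to glutathione, fell from 2213, 2272, 2176 and 2044 CPM under DR to 138, 114, 108 and 114 CPM (log2 -4.20 ± 0.047).

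*ins-7*, an insulin-like peptide that acts as an agonist of DAF-2 and is made in the intestine, had 4.26, 2.72, 3.88 and 4.66 CPM in the mutant and 77.7, 70.7, 70.7 and 75.2 CPM under DR (log2 -4.10 ± 0.10). AL worms had 15.2 ± 0.660 CPM, so both restricted and mutant worms differed from AL, in opposite directions. Members of a nematode-specific peptide family, *nspc-16* and *nspc-18*, were under 1.1 CPM in every mutant library. Their DR values were 41.98, 45.7, 45.0 and 47.8 CPM for *nspc-16* and 47.5, 43.7, 44.3 and 48.1 CPM for *nspc-18* (log2 -5.86 and -5.09), and reads may be split among the close copies of this family. *T16G1.7*, *ZK673.1*, *spp-4* and *T05E12.3* complete the 12, with log2 differences of -5.82, -4.07, -4.06 and -4.03. For all 24 genes the difference in total mRNA was called in the same direction. Their adjusted p-values in translated mRNA were 1.27e-25 at most for the increases and 9.64e-27 at most for the decreases. Of all genes named by rule, 141 were called, and for each of them the 4 values of one group lay beyond those of the other. The 24 largest differences were picked for this and the rest passed the call, so it follows largely from the choice of genes. Of the 12 decreases, *ilys-5* had a DR level close to that of AL, whereas the other 11 had DR levels above AL by log2 values from 1.39 to 4.69.

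**Figure D2:**
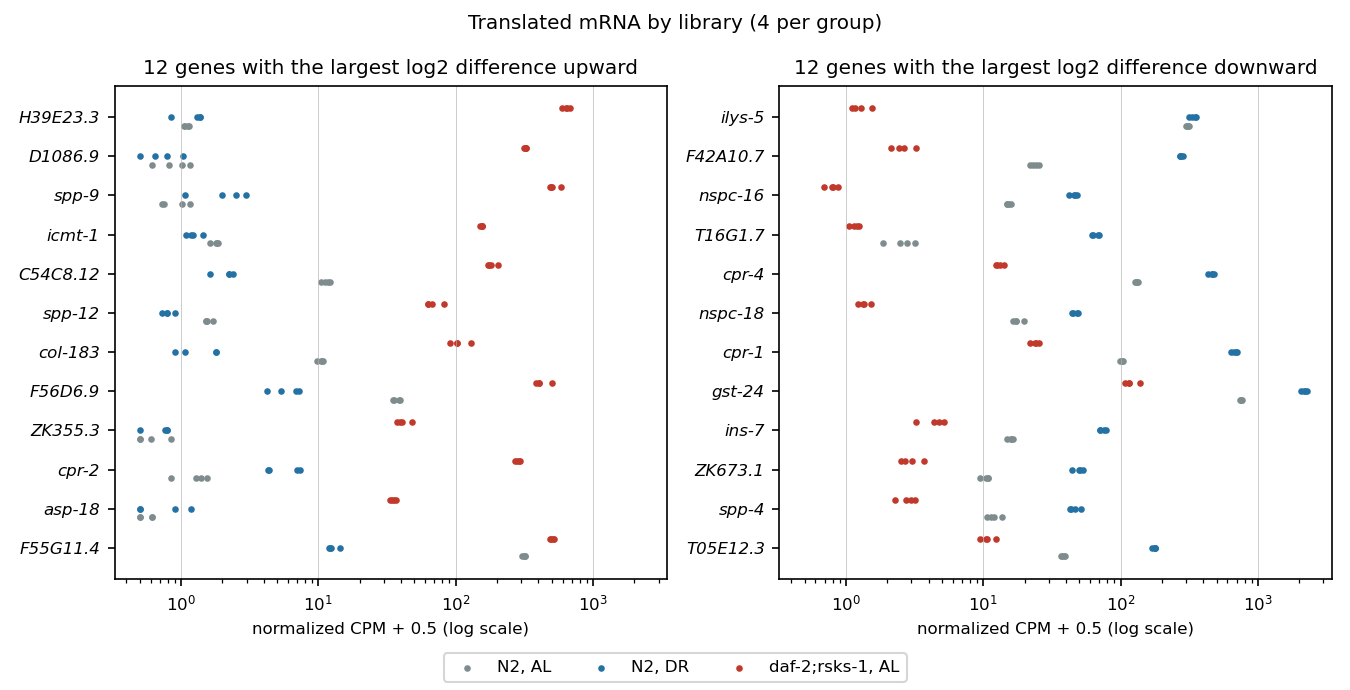
Translated mRNA of the 12 genes with the largest differences upward and the 12 with the largest downward, in CPM plus 0.5 on a log scale, with 1 point for each of 4 libraries of N2 on AL (grey), N2 under DR (blue) and *daf-2;rsks-1* on AL (red). Red and blue points do not overlap for any of the 24 genes, by the rule that picked them. The grey AL points lie near the blue ones for *ilys-5* and near the red ones for *F55G11.4*.

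Genes of the insulin and TOR pathway itself went both ways, 12 with values above 0 and 12 below. Of 25 listed, 24 were tested, 0 were called higher and 4 lower, where 8.62% and 8.32% of all genes were, and 21 had an adjusted p under 0.05 at any fold. The list had a median log2 difference of -0.02 that turned to 0.02 without replicate 1 of *daf-2;rsks-1* and to 0.07 and 0.39 with TMM and plain CPM. Besides *rsks-1*, the genes called were *sgk-1*, a kinase downstream of the receptor and of TORC2, *hlh-30*, the worm TFEB that drives lysosomal and autophagy genes, and *pqm-1*, a factor that opposes DAF-16 in nuclei. *sgk-1* had 22.1, 20.8, 18.7 and 20.3 CPM in the mutant and 57.0, 61.4, 56.7 and 51.5 CPM under DR (log2 -1.44 ± 0.075). *hlh-30* had 92.9, 98.5, 103 and 101 CPM and 221, 220.5, 233 and 209 CPM in that order (log2 -1.16 ± 0.046). The AL level of *hlh-30* was 96.9 ± 4.70 CPM, near that of the mutant, and with plain CPM the gene was not called. *pqm-1* lay just past 2-fold (log2 -1.02 ± 0.047) and was not called with TMM, plain CPM, the correction for exon length or without replicate 3 of *daf-2;rsks-1*. *mlst-8*, for a subunit of the TOR complexes, had the highest value of the list at 0.91, short of the 2-fold bar but past it with TMM, plain CPM or without replicate 3 of DR.

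Of 29 genes known from earlier work to rise in *daf-2* mutants 21 were tested. Among them 11 were called higher and 3 lower, beside 8.62% and 8.32% of all genes, with a median log2 difference of 1.504. The median depends on the filter, which members such as *spp-12* passed through the mutant libraries: with no filter 28 were tested, 12 higher and 3 lower, and the median was 0.62. With a mean of at least 20 CPM 13 were tested, 4 higher and 3 lower, and the median was 0.41. After *spp-12*, *sod-3* and *mtl-1* came the cytochrome P450 *cyp-35B1*, at 60.7, 55.3, 57.0 and 54.9 CPM in the mutant and 7.58, 7.37, 5.51 and 7.41 CPM under DR (log2 2.95 ± 0.094), and *lea-1*, which protects against desiccation, at a log2 of 2.88. The lysozyme *lys-7*, a DAF-16 target, had 6660.4, 6101, 5861 and 6136 CPM against 1128, 1185, 1189 and 1101 CPM (log2 2.43 ± 0.033). The aquaglyceroporin *aqp-1* went the other way, from 156, 150.3, 160.1 and 156 CPM under DR to 14.7, 12.1, 15.2 and 15.4 CPM in the mutant (log2 -3.40 ± 0.072). Its AL level was 17.1 ± 1.005 CPM, so DR alone was high. The ferritin *ftn-1* was above AL in both groups, by a log2 of 2.05 in the mutant and 3.41 under DR, and was lower in the mutant than under DR (log2 -1.36 ± 0.054, not called with plain CPM). *icl-1*, the glyoxylate cycle enzyme that turns fat into sugar precursors, showed the same order, with log2 values against AL of 1.27 and 2.35 and a difference of -1.08 ± 0.036 that did not pass 2-fold with TMM or plain CPM. Those values against AL share the AL libraries.

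Of 15 genes known to fall in *daf-2* mutants, 9 were tested, with a median of -1.14. Among them 5 were called lower and 1 higher, beside 8.32% and 8.62% of all genes. *dod-24*, a gene of the immune response, had 3.98, 4.48, 4.43 and 4.44 CPM in the mutant, 37.3, 43.9, 39.6 and 43.8 CPM under DR and 379.5 ± 17.8 CPM under AL (log2 between mutant and DR -3.11 ± 0.094). *dod-23* took the same order, with log2 differences of -3.09 from AL in the mutant, -1.01 from AL under DR and -2.08 ± 0.053 between mutant and DR. The intestinal peptide transporter *pept-1* had 4.48, 4.74, 4.24 and 5.55 CPM and 29.7, 23.4, 30.3 and 26.7 CPM in mutant and DR (log2 -2.41 ± 0.092). The gut esterase *ges-1* was the member called higher, at 102, 109, 99.8 and 103 CPM against 24.6, 24.8, 24.96 and 24.4 CPM (log2 2.04 ± 0.067).

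mRNAs for cytosolic ribosomal proteins, the protein part of the ribosome itself, were lower on polysomes of *daf-2;rsks-1* than of DR worms. Of 81 listed 78 were tested, and 45 were called lower and 0 higher, beside 8.32% and 8.62% of all genes. The median log2 difference was -1.08, and 77 of the 78 values were below 0. *rps-13* was lowest, at 744, 666, 638 and 675 CPM in the mutant against 3277, 3251, 3409 and 3091 CPM under DR (log2 -2.26 ± 0.037). *rpl-17* had 1114, 985, 939 and 971 CPM against 3895, 3882, 4039.8 and 3739 CPM (log2 -1.96 ± 0.039). *rpl-7A* was the sole member above 0, at 748, 635, 601 and 639.5 CPM and 582, 573, 612 and 573 CPM (log2 0.16 ± 0.043, not called). By library, the median of the list against the AL mean of each gene was -1.33 to -1.06 in the mutant and -0.21 to -0.11 under DR. In total mRNA 6 members were called lower, where 5.03% of all genes were, with a median of -0.60. The polysome-specific difference, that in translated minus that in total mRNA, was called lower for 9 members, 0 higher, beside 5.28% lower and 2.46% higher of all genes. The median stayed below 0 with each scaling tried, but the count moved: 16 were called lower with plain CPM (median -0.66), 38 with TMM over coding genes and 49 without replicate 1 of *daf-2;rsks-1*.

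Exon length moved with this result. In the fifth of tested genes with the shortest exons, 108 to 855 bases in all, the median log2 difference was -0.26, and 143 genes were called higher and 284 lower. In the fifth with the longest, 2591 to 56044 bases, the median was 0.12, with 129 called higher and 69 lower. After the trend with exon length was removed from each library, 21 ribosomal protein genes were called lower and the list's median was -0.79. Paralogs such as *rpl-11.2* (log2 -2.17 ± 0.042) and *rpl-11.1* (log2 -0.87) may share reads.

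The rest of the translation machinery differed less. Of 41 translation factors 40 were tested, with 2 called higher and 4 lower, beside 8.62% and 8.32% of all genes. In either direction the share was near the 16.9% of all genes. The median was -0.27, which turned to 0.15 with plain CPM, where 2 were higher and 1 lower. *iff-2*, one of the genes for the elongation-promoting factor eIF5A, had 184, 160.2, 164 and 169 CPM in the mutant and 549, 544, 571 and 517 CPM under DR (log2 -1.69 ± 0.037), with AL at 135 ± 2.70 CPM. The elongation factor subunits *eef-1B.2* and *eef-1B.1* had log2 differences of -1.31 ± 0.032 and -1.28 ± 0.036. Both were not called with plain CPM. *pab-1*, for the polyA-binding protein, went up, from 833, 892, 895 and 836 CPM under DR to 1926, 1993, 2003 and 2055 CPM (log2 1.21 ± 0.034). *ife-5*, a cap-binding eIF4E of the germline, also rose (log2 1.199 ± 0.078). Of 31 aminoacyl-tRNA synthetases, 33 proteasome subunits, 8 chaperonin subunits, 20 subunits of the vacuolar ATPase and 42 tested of 43 respiratory chain genes, 0 were called in either direction, where 16.9% of all genes were. Within these lists the values ran from -0.73 for *aars-1* to 0.77 for *rars-2* among synthetases, from -0.79 for *pbs-1* to 0.28 for *rpn-6.1* in the proteasome and from -0.94 for *cox-18* to 0.50 for *ucr-11* in the respiratory chain. At any fold most of these genes had an adjusted p under 0.05, as did most genes tested, and the count of 0 refers to the 2-fold bar. With plain CPM 1 synthetase, 1 chaperonin subunit and 2 vacuolar ATPase subunits were called higher.

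**Figure D3:**
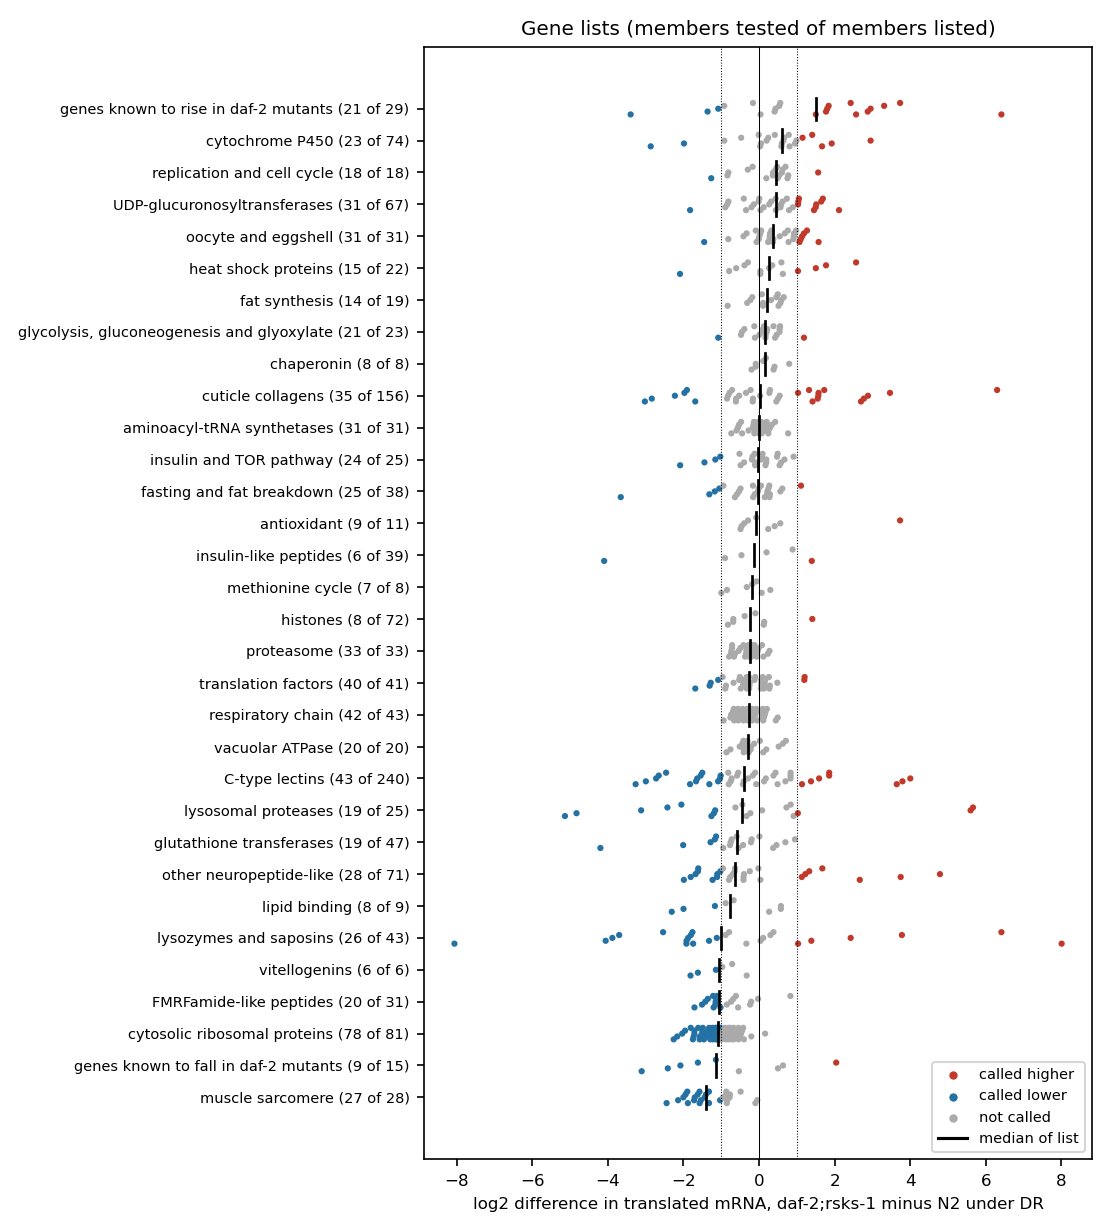
Log2 difference in translated mRNA, *daf-2;rsks-1* minus N2 under DR, for every tested member of each gene list, with the number tested of the number listed beside its name. Points are genes, coloured where called, black bars are list medians and dotted lines mark 2-fold; muscle sarcomere and ribosomal protein genes lie mostly left of 0 and genes known to rise in *daf-2* mutants mostly right of it.

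Yolk protein mRNAs, which the intestine translates for the oocytes, were less abundant on polysomes of *daf-2;rsks-1*. All 6 vitellogenins were tested, 3 were called lower and 0 higher, beside 8.32% and 8.62% of all genes, and the median was -1.06. *vit-5* had 2984, 3027, 3079 and 3038 CPM in the mutant and 9030.1, 9532, 9296 and 9369.8 CPM under DR (log2 -1.62 ± 0.036). *vit-2* had 6698, 6851, 6949 and 6870.1 CPM and 14738, 15168, 15474 and 14996 CPM (log2 -1.14 ± 0.040), *vit-3* had a log2 difference of -1.81 ± 0.037, and *vit-6* differed least at -0.33 ± 0.043. Total mRNA did not show this: the median difference there was 0.44, and 2 members were called higher, where 9.91% of all genes were. All 6 had a polysome-specific difference called lower. For *vit-6*, total mRNA was at 14925 ± 789.8 CPM in the mutant and 5832 ± 68.9 CPM under DR (SD, n = 4 each), whereas translated mRNA was at 9841 ± 25.5 and 12341 ± 341 CPM. *vit-3*, *vit-4* and *vit-5* are near copies between which reads may be split, and *vit-2* was not called with plain CPM.

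Oocyte and eggshell genes were higher for some members. Of 31 listed and tested, 6 were called higher and 1 lower, with a median of 0.37. Against AL the list medians were below 0 in both groups, at -0.28 in the mutant and -0.51 under DR. Compared with AL, 13 members were called lower under DR, where 8.17% of all genes were, and 1 in the mutant. In neither group was a member called higher than on AL. *egg-5*, *egg-3* and *egg-4*, which control egg activation at fertilization, were called. *egg-5* had 65.2, 75.4, 70.7 and 72.6 CPM in the mutant and 23.9, 25.2, 22.5 and 22.2 CPM under DR (log2 1.58 ± 0.052), with AL at 68.8 ± 5.32 CPM. *oma-1*, a regulator of oocyte maturation, had 144, 161, 159.7 and 167 CPM against 67.9, 71.7, 65.2 and 70.9 CPM (log2 1.19 ± 0.041), and *gld-1*, a translational repressor of the germline, 389.5, 441, 469 and 463 CPM against 188, 226, 193 and 212 CPM (log2 1.105 ± 0.045). *pos-1*, which specifies germline fate in the embryo, was lower (log2 -1.45 ± 0.031). The count of higher members was 10 with TMM over coding genes, 13 with plain CPM and 3 with the correction for exon length. Markers of germline and oocytes, 8 in all and none near 0, are all members of this list, so they are no separate measure. They summed to 2577 to 2837 CPM in the mutant, 1704 to 1801 CPM under DR and 2561 to 2626 CPM on AL. Their part in this result was not tested. Among 18 replication and cell cycle genes, *cdk-2* was called higher (log2 1.57 ± 0.096) and the mitotic cyclin *cyb-3* lower (log2 -1.27 ± 0.028), with 6 higher and 0 lower under plain CPM. Of all genes 16.9% were called in either direction with the deposited scaling.

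Genes of the muscle sarcomere, the contractile unit, were lower in *daf-2;rsks-1* than under DR. Of 28 listed 27 were tested, and 17 were called lower and 0 higher, beside 8.32% and 8.62% of all genes. The median was -1.40 and all 27 values were below 0. *tni-3*, a troponin I gene, had 11.3, 11.5, 10.6 and 10.1 CPM in the mutant against 55.0, 69.9, 60.1 and 62.1 CPM under DR (log2 -2.45 ± 0.088). The myosin light chain *mlc-3* had 168, 159.8, 151 and 152 CPM and 667, 716, 722 and 686 CPM (log2 -2.14 ± 0.035). *unc-22*, the giant kinase twitchin, had 19.3, 26.4, 31.2 and 28.6 CPM and 104, 93.8, 116 and 110.2 CPM (log2 -2.002 ± 0.091). In each of these genes the mutant libraries were all below the DR libraries, and for 72.3% of all genes tested the groups did not overlap. For the body wall myosin heavy chain *unc-54*, values were 452, 520.1, 523 and 521 CPM and 1309.5, 1337, 1382 and 1304 CPM (log2 -1.40 ± 0.046, not called with plain CPM). At the upper end stood the actins *act-1* and *act-2* with log2 values of -0.10 and -0.05, whose near-identical coding sequences make the split of reads among actin genes uncertain.

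The N2 AL libraries place this difference. By library, the list's median against the AL mean of each gene was 0.13 to 0.16 in *daf-2;rsks-1* and 1.60 to 1.70 under DR, so the mutant lay near AL and DR lay above it. For *mlc-3* the log2 difference from AL was 0.33 in the mutant and 2.47 under DR. For *unc-89*, the obscurin homolog, these values were -0.04 and 1.86. Both sets of values share the 4 AL libraries. In total mRNA 7 members were called lower between mutant and DR, where 5.03% of all genes were, with a median of -0.66. For 8 members the polysome-specific difference was called lower, beside 5.28% of all genes. The 4 body wall muscle markers, which are themselves sarcomere genes, summed to 692 to 805 CPM in the mutant, 1898 to 2005 CPM under DR and 436 to 506 CPM under AL. Of 3 pharyngeal muscle markers 1 was under 1 CPM, and the others, *myo-1* and *myo-2*, are also in the sarcomere list. The sums were 34.1 to 37.9 CPM in the mutant and 78.6 to 81.0 CPM under DR. Their part in the result was not tested.

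**Figure D4:**
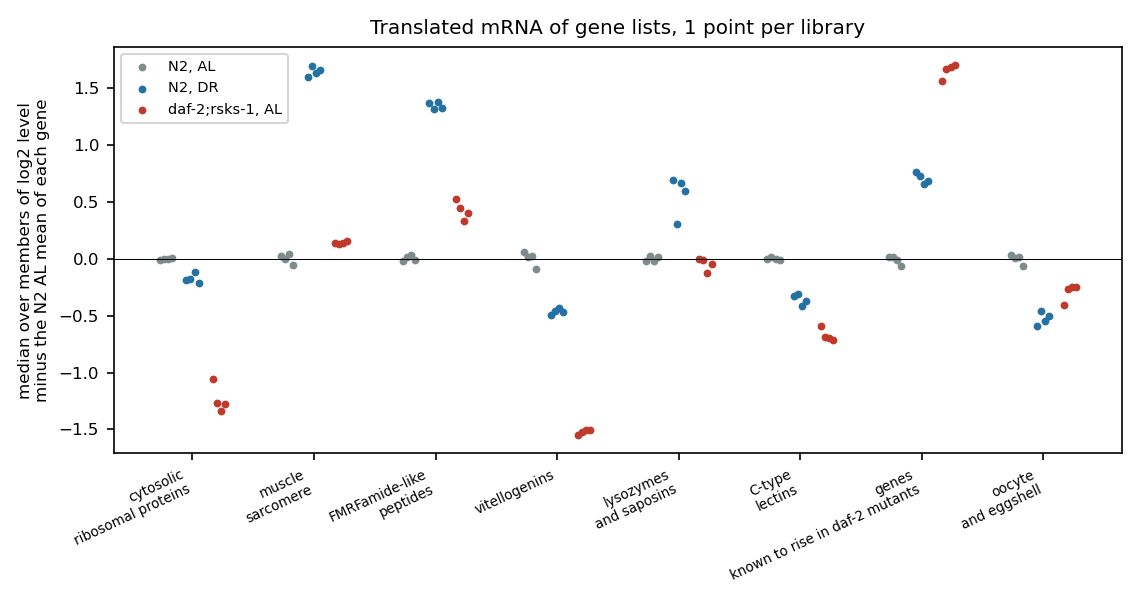
Median over the tested members of 8 gene lists of the log2 level in translated mRNA minus the gene's mean in N2 on AL, with 1 point for each of 4 libraries of N2 on AL (grey), N2 under DR (blue) and *daf-2;rsks-1* on AL (red). For muscle sarcomere genes the red points lie at 0.13 to 0.16 and the blue ones at 1.60 to 1.70, whereas for ribosomal proteins the blue points lie at -0.21 to -0.11 and the red ones at -1.33 to -1.06.

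Neuropeptide mRNAs on polysomes were lower in *daf-2;rsks-1* than under DR for many members. FMRFamide-like peptides, a large family of signalling peptides in worm neurons, had 20 of 31 members tested, with a median of -1.07. Among them 11 were called lower and 0 higher, beside 8.32% and 8.62% of all genes. *flp-1* had 59.7, 49.9, 50.6 and 51.5 CPM in the mutant and 169, 195, 169.8 and 163 CPM under DR (log2 -1.71 ± 0.067). *flp-14* had 52.3, 46.4, 44.6 and 47.4 CPM and 143, 143, 136 and 125 CPM (log2 -1.51 ± 0.055). *flp-10* was the member above 0, at 0.83. Both groups lay above AL, by list medians of 0.33 to 0.52 per library in the mutant and 1.32 to 1.38 under DR. In total mRNA 0 members were called and the median was 0.03. The list's median exon length was 684 bases, against 1505 over all genes tested. With the correction for exon length 5 were called lower and 1 higher, and with plain CPM 3 lower and 1 higher. The part of exon length in the result was not tested. The 7 neuron markers, none near 0, summed to 496 to 536 CPM in the mutant and 671 to 707 CPM under DR, and their part in the result was not tested.

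Among 71 genes of the other neuropeptide-like class 28 were tested, with a median of -0.64. Of these 7 were called higher and 9 lower, beside 8.62% and 8.32% of all genes. The 7 higher members were *nlp-39*, *nlp-28*, *nlp-33*, *nlp-27*, *nlp-24*, *nlp-29* and *nlp-31*. Of these *nlp-27*, *nlp-28*, *nlp-29* and *nlp-31* form a gene cluster known for antimicrobial peptides of the epidermis. *nlp-28* had 76.1, 66.9, 65.2 and 68.9 CPM in the mutant, 3.94, 6.24, 4.64 and 4.18 CPM under DR and 29.3 ± 0.908 CPM under AL (log2 between mutant and DR 3.75 ± 0.093). *nlp-33*, also an epidermal antimicrobial peptide, had 59.3, 54.8, 45.5 and 48.0 CPM against 8.89, 6.58, 7.98 and 7.55 CPM (log2 2.67 ± 0.10). *nlp-39* had the largest difference, with 356, 324, 298 and 306 CPM against 9.62, 11.3, 11.8 and 11.9 CPM (log2 4.79 ± 0.096). On the lower side stood *nlp-56* (log2 -1.99 ± 0.092), *nlp-15* (log2 -1.81 ± 0.094) and *nlp-50* (log2 -1.68 ± 0.11), and with the correction for exon length 5 members were lower. Of 39 insulin-like peptides 6 were tested. *ins-7* was called lower, and *ins-35* was called higher at 23.4, 18.3, 20.7 and 20.5 CPM against 6.997, 6.01, 8.997 and 8.49 CPM (log2 1.40 ± 0.16).

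Genes that act in the intestinal lumen and lysosome moved in both directions. Among lysozymes and saposins, enzymes and membrane-active proteins that digest bacteria, 26 of 43 were tested, with a median of -1.001. Of these 13 were called lower and 6 higher, beside 8.32% and 8.62% of all genes. *spp-17* had 12.1, 10.5, 6.85 and 10.9 CPM in the mutant and 149, 151, 157 and 154 CPM under DR (log2 -3.88 ± 0.085). *spp-23* had 9.54, 8.17, 7.03 and 6.74 CPM against 113, 110.1, 105 and 102 CPM, with AL at 6.82 ± 1.08 CPM (log2 -3.70 ± 0.11). Against these, *spp-20* had 142, 126, 129 and 125 CPM in the mutant and 7.87, 8.05, 9.43 and 10.9 CPM under DR (log2 3.78 ± 0.097). The sum over the 43 genes was higher in the mutant, at 12084 to 13753 CPM against 10704 to 11167 CPM under DR, and *lys-7*, given above, had the largest share of it in the mutant. For 17 members the polysome-specific difference was called lower and for 1 higher.

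Lysosomal proteases had 19 of 25 members tested, 8 called lower and 3 higher, beside 8.32% and 8.62% of all genes. Their median was -0.44, and with plain CPM 5 were lower and 6 higher. Besides *cpr-4* and *cpr-1*, *asp-1*, an intestinal cathepsin D-like protease, was lower, at 299.7, 295, 277 and 303 CPM in the mutant and 1569.8, 1578, 1681 and 1493 CPM under DR (log2 -2.42 ± 0.040). *asp-4*, a cathepsin D-like protease known from necrotic cell death, was called higher at 1669, 1617, 1634 and 1645 CPM against 819, 834, 772 and 795 CPM (log2 1.03 ± 0.028), and fell below 2-fold with the correction for exon length. In total mRNA the balance was the reverse: 10 members were called higher and 4 lower, with a median of 1.02, and 12 had a polysome-specific difference called lower. C-type lectins, secreted sugar-binding proteins many of which respond to bacteria, had 43 of 240 tested, 14 called lower and 8 higher, with a median of -0.40. With plain CPM 10 were lower and 12 higher, and the median was 0.00. In total mRNA 17 members were called higher and 6 lower, with a median of 0.69, and 18 had a polysome-specific difference called lower. *clec-52* had 47.6, 42.7, 40.7 and 41.7 CPM in the mutant against 429, 434, 425 and 388 CPM under DR (log2 -3.27 ± 0.044), and *clec-48* and *clec-47* had log2 values of -2.996 ± 0.059 and -2.72 ± 0.069. On the other side, *clec-266* had 923, 845, 848 and 869 CPM against 66.2, 57.5, 64.3 and 61.0 CPM (log2 3.80 ± 0.046), although 371 of its exon bases overlap *kqt-1* on the other strand. *clec-6* had 45.8, 44.6, 48.6 and 44.9 CPM against 2.77, 2.72, 1.89 and 2.29 CPM (log2 4.004 ± 0.14).

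The 6 intestine markers, none near 0, summed to 474 to 502 CPM in *daf-2;rsks-1*, 1122 to 1182 CPM under DR and 753 to 833 CPM under AL. *pept-1*, the intermediate filament *ifb-2* (log2 -1.88 ± 0.044) and the microvillar actin *act-5* (log2 -1.78 ± 0.037) were called lower and *ges-1* higher. *elt-2*, the transcription factor that defines the intestine, had 36.6, 39.9, 34.5 and 38.6 CPM in the mutant and 51.5, 50.1, 53.8 and 50.8 CPM under DR (log2 -0.46 ± 0.070, not called). The part of these markers in the results for intestinal genes was not tested.

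Cuticle collagens split into higher and lower members. Of 156 listed 35 were tested, 12 were called higher and 6 lower, beside 8.62% and 8.32% of all genes. The median of 0.03 was -0.02 without replicate 1 of *daf-2;rsks-1*. After *col-183*, *col-98* had 711, 596, 553 and 587 CPM in the mutant and 78.3, 78.9, 95.3 and 76.9 CPM under DR (log2 2.88 ± 0.067). *col-80* had 422, 380.3, 375 and 391 CPM against 54.5, 57.2, 59.4 and 56.2 CPM (log2 2.78 ± 0.042), and *col-45* a log2 difference of 3.47 ± 0.16. The adult collagens *col-119* and *col-19* were lower. *col-119* had 347, 293, 275 and 292 CPM and 2447, 2456, 2588 and 2294 CPM (log2 -3.02 ± 0.047), and *col-19* had 112, 95.0, 95.6 and 92.3 CPM and 462, 481, 498 and 416 CPM (log2 -2.23 ± 0.052). For *col-19* the mutant lay at the AL level of 105 ± 5.63 CPM. Of 6 epidermis markers 4 were under 1 CPM in both groups, and the sum, 97.1 to 117 CPM in the mutant and 417 to 498 CPM under DR, was nearly all *col-19*.

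Of 38 fasting and fat breakdown genes 25 were tested, with 4 called lower and 1 higher, 5 in all, near the 16.9% of all genes called in either direction, and a median of -0.03 (0.06 with TMM and 0.37 with plain CPM, where 1 was lower and 2 higher). *acs-2*, the mitochondrial acyl-CoA synthetase that fasting induces, had 61.4, 63.6, 65.5 and 69.7 CPM in the mutant, 847, 836, 845 and 783 CPM under DR and 13.6 ± 0.603 CPM under AL (log2 between mutant and DR -3.66 ± 0.047). Both groups were thus above AL, by a log2 of 2.21 in the mutant and 5.87 under DR. The lysosomal lipase *lipl-5* was below AL in both, at 52.8, 48.2, 44.0 and 51.9 CPM in the mutant, 113, 109, 122 and 102 CPM under DR and 410.4 ± 13.97 CPM under AL (log2 between mutant and DR -1.17 ± 0.050). The hydroxyacyl-CoA dehydrogenase *hacd-1* and the acyl-CoA dehydrogenase *acdh-1* had log2 differences of -1.32 ± 0.038 and -1.05 ± 0.031, and like *lipl-5* were not called with plain CPM. The enoyl-CoA hydratase *ech-5* was called higher (log2 1.11 ± 0.059). Lipid-binding proteins had 8 of 9 members tested and 3 called lower, among them *lbp-5* at 15.1, 13.8, 11.8 and 14.5 CPM against 76.4, 66.2, 68.6 and 69.7 CPM (log2 -2.31 ± 0.081). Of 14 tested fat synthesis genes 0 were called, with values from -0.83 for *fat-3* to 0.65 for *fat-4*. In glycolysis, gluconeogenesis and the glyoxylate cycle, 21 of 23 were tested. *pck-1*, the gluconeogenic PEP carboxykinase, was called higher (log2 1.19 ± 0.047) and *icl-1* lower, a share under the 16.9% of all genes. Of 7 tested methionine cycle genes 0 were called, and *sams-1*, the main S-adenosylmethionine synthetase, lay just short of 2-fold (log2 -0.997 ± 0.059) and was called with a pseudocount of 0.1, in edgeR or with the correction for exon length.

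Detoxification families leaned in different directions. Of 74 cytochrome P450 genes 23 were tested, with a median of 0.61. Among them 5 were called higher and 2 lower, beside 8.62% and 8.32% of all genes. *cyp-34A8* had 57.4, 54.8, 56.4 and 53.3 CPM in the mutant and 13.99, 13.6, 17.3 and 12.5 CPM under DR (log2 1.92 ± 0.088). *cyp-35A2*, an intestinal enzyme known for its effect on fat stores, was lower at 11.1, 10.1, 12.1 and 10.9 CPM against 84.8, 84.9, 76.9 and 87.6 CPM (log2 -2.87 ± 0.074). With TMM 7 P450 genes were called higher and with plain CPM 13. Of 67 UDP-glucuronosyltransferases, which add sugars to lipophilic compounds, 31 were tested, 9 were called higher and 1 lower, with a median of 0.45. With plain CPM 13 were higher and with the correction for exon length 6. *ugt-5* had 30.5, 29.1, 29.9 and 30.4 CPM in the mutant against 6.41, 6.80, 5.805 and 7.14 CPM under DR (log2 2.12 ± 0.10). The member called lower was *ugt-22* (log2 -1.82 ± 0.062), which shares 309 exon bases with *srz-29* on the other strand.

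Glutathione transferases had 19 of 47 tested, 5 called lower and 0 higher, beside 8.32% and 8.62% of all genes, with a median of -0.59. After *gst-24*, *gst-6* had 7.30, 7.20, 8.12 and 7.92 CPM in the mutant and 30.03, 31.6, 33.5 and 33.7 CPM under DR (log2 -2.01 ± 0.093). *gst-5* had a log2 difference of -1.28 ± 0.065 and was not called with plain CPM. Under plain CPM 2 were lower and 2 higher, and with the correction for exon length 3 were lower and 1 higher. Of 9 tested antioxidant genes *sod-3* alone was called, where 16.9% of all genes were called in either direction. Of 22 heat shock proteins 15 were tested, with a median of 0.27. Among them 4 were called higher and 1 lower, beside 8.62% and 8.32% of all genes. With a mean of at least 20 CPM 12 were tested, 1 was higher and 1 lower, and the median was 0.04, and with the correction for exon length 3 were higher and the median was 0.07. *hsp-12.3* had 30.6, 26.9, 25.2 and 26.4 CPM against 4.96, 3.52, 5.51 and 3.10 CPM (log2 2.57 ± 0.14), and *hsp-12.2*, of the same class of small proteins, went from 63.4, 72.1, 63.0 and 58.1 CPM under DR down to 13.4, 16.54, 13.9 and 14.8 CPM (log2 -2.09 ± 0.091). *hsp-16.2* and *hsp-16.1* were called higher, at log2 values of 1.77 ± 0.13 and 1.504 ± 0.10, and each has near-identical copies with which reads may be shared. The mitochondrial chaperone *hsp-6* lay just past 2-fold (log2 1.03 ± 0.037) and below it with the correction for exon length. The linker histone *his-24* was called higher among 8 tested of 72 histone genes (log2 1.41 ± 0.047), most of whose mRNAs lack the polyA tail by which these libraries were made.

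The difference in translated mRNA was set against that in total mRNA of the same kinds of worm to find what was particular to the polysomes. In total mRNA 827 genes (9.91%) were called higher in *daf-2;rsks-1* than under DR and 420 (5.03%) lower. Called in the same direction in both pools were 756 genes, 485 of them higher and 271 lower. They made up 53.5% of the genes called in translated mRNA and 60.6% of those called in total mRNA. A further 655 were called in translated mRNA and not in total, 233 higher and 422 lower, and 2 were called in opposite directions. The polysome-specific difference itself, tested as an interaction in limma, was called higher for 205 genes (2.46%) and lower for 441 (5.28%), together 7.74%, with a median over all genes of -0.04. With TMM over coding genes these counts were 351 and 313, and with plain CPM 669 and 180, so which direction held more genes depended on the scaling. Without replicate 1 of *daf-2;rsks-1* they were 237 and 464.

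*adpr-1* had the largest polysome-specific increase. In translated mRNA it was at 16.19, 19.01, 21.04 and 19.7 CPM in the mutant and 5.83, 4.88, 7.26 and 5.25 CPM under DR. In total mRNA the order was reversed, with 12.64, 16.09, 13.7 and 15.7 CPM in the mutant and 35.3, 33.2, 35.2 and 33.9 CPM under DR, and the interaction was 2.86 ± 0.15 (log2 ± SE; adjusted p = 2.56e-19). *pha-1*, known from a toxin and antidote pair with *sup-35*, had 6.43, 9.80, 7.76 and 8.88 CPM in translated mRNA of the mutant against 1.60, 1.70, 1.31 and 1.35 CPM under DR, whereas total mRNA held 10.702 ± 1.78 and 11.7 ± 1.78 CPM (SD, n = 4 each; interaction 2.25 ± 0.18). *ppfr-4*, a regulatory subunit of protein phosphatase 4, *D1086.9*, the DENN-domain gene *denn-4* and *Y59A8B.21* followed, with interactions of 2.16, 2.14, 2.14 and 2.14. *D1086.9* was higher in both pools, by a log2 of 8.80 in translated and 6.66 in total mRNA, with few DR reads. For *ppfr-4*, *pha-1* and *Y59A8B.21* total mRNA differed by log2 values of -0.27, -0.13 and -0.16.

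The largest polysome-specific decreases included genes for a lysozyme, a C-type lectin, a saposin-like protein and an aspartyl protease. *ilys-5* was lower in both pools, by a log2 of -8.06 in translated and -4.52 in total mRNA, and its DR libraries held 63.2 ± 1.49 CPM in total against 338 ± 16.9 CPM in translated mRNA (SD, n = 4 each; interaction -3.54 ± 0.098). *clec-86* was higher in total mRNA of the mutant, at 29.6, 29.9, 34.3 and 30.6 CPM against 3.50, 4.25, 3.62 and 4.73 CPM under DR, and lower in translated mRNA, at 32.6, 25.4, 28.2 and 27.02 CPM against 50.6, 49.9, 46.7 and 41.0 CPM (interaction -3.53 ± 0.16). *Y51F10.7* was higher in both pools, by 1.92 in translated and 4.68 in total mRNA. *spp-4* was lower in both, with log2 values of -4.06 and -1.33. *Y110A2AL.4* and the aspartyl protease *asp-14* had interactions of -2.60 and -2.48. Among members of the lists, genes with a larger rise in total than in translated mRNA included *lys-7*, at 2.43 in translated and 4.86 in total, and *clec-266*, at 3.80 and 6.25. Polysome-specific decreases were called for 6 of 6 vitellogenins, 17 of 26 lysozymes and saposins, 12 of 19 lysosomal proteases, 5 of 9 genes known to fall in *daf-2* mutants, 8 of 19 glutathione transferases and 18 of 43 C-type lectins. Of all genes 5.28% were called lower, and among these lists 1 member, the lysozyme gene *ilys-3*, was called the other way. The lists share some members, such as *vit-2* and *vit-5*. The muscle list had 8 of 27 and the ribosomal list 9 of 78. Other lists held such members too, among them FMRFamide-like peptides with 5 of 20 lower and 0 higher. Genes known to rise in *daf-2* mutants had 6 of 21 lower and 1 higher. These list counts were made with the deposited scaling only. Over all genes the 441 called lower became 180 with plain CPM and 313 with TMM.

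**Figure D5:**
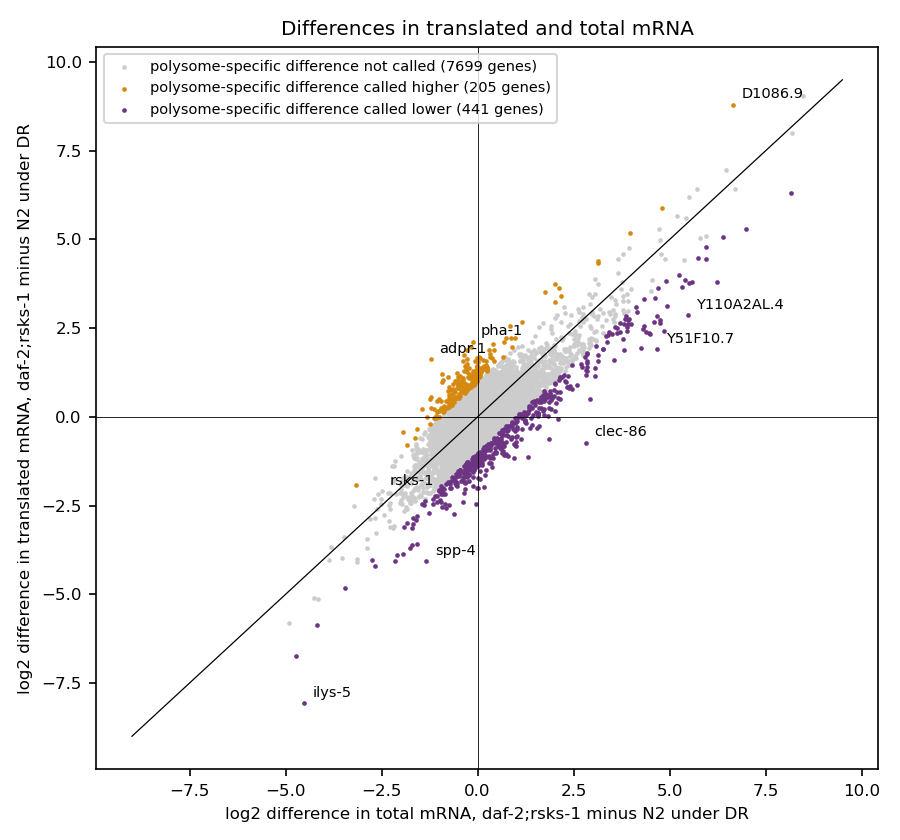
Log2 difference between *daf-2;rsks-1* and N2 under DR in total mRNA on the x axis and in translated mRNA on the y axis, with 1 point for each of 8345 genes and the diagonal marking equal differences. Orange points are the 205 genes whose polysome-specific difference was called higher and purple points the 441 called lower; *adpr-1* and *pha-1* lie above the diagonal and *ilys-5*, *spp-4*, *Y51F10.7* and *clec-86* below it.

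N2 on AL gives both sides of the difference, since that between mutant and DR is the mutant's difference from AL minus that of DR from AL. In translated mRNA 408 genes (4.89%) were called higher and 517 (6.2%) lower in *daf-2;rsks-1* than in N2 on AL. Under DR 587 (7.03%) were called higher and 682 (8.17%) lower than on AL. Of the lists described above, ribosomal protein genes had a median of -1.24 from AL in the mutant and -0.18 under DR, and vitellogenins -1.52 and -0.46. Sarcomere genes had 0.14 and 1.68 in that order, and FMRFamide-like peptides 0.44 and 1.34. Genes known to rise in *daf-2* mutants had 1.66 in the mutant and 0.68 under DR, and genes known to fall had -1.37 and -1.01. Both comparisons use the same 4 AL libraries, so these values are given side by side and were not tested against each other.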

How the data were processed

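The authors aligned 24 libraries with TopHat to the WS220 genome with Ensembl 66 transcripts, counted reads per gene with HTSeq 0.6.1 and normalized them for RNA composition with edgeR 3.0. The deposited signal is this normalized CPM, a gene's reads as a share of its library's total, scaled and divided by a composition factor, for 45461 genes without a filter. 100% of values were whole numbers of reads within 0.05 reads, so reads and depth were recovered. No column was left unused. Of the IDs, 44936 matched Ensembl release 115, which gave gene types, exon lengths and exon overlaps, and 525 did not. Coordinates were not used, since the builds differ.

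Coding genes averaging 8 CPM or more across all 24 libraries (8345) were fitted as log2 of CPM plus 0.5 in limma 3.58.1 under R 4.3.3, with a trended prior, 1 mean for each of 6 groups and Benjamini-Hochberg adjustment over all genes tested. Called genes had an adjusted p under 0.05 and at least a 2-fold difference. The polysome-specific difference is the interaction of group and mRNA pool. edgeR 4.0.16, run on recovered reads, was an alternative, as were other pseudocounts, filters, scalings and left-out libraries. The correction for exon length and the list counts without replicate 1 of *daf-2;rsks-1* were chosen after seeing the data. On simulated counts, 100% of 199 genes changed by a log2 of 2 were called among 8320 for the comparison of the groups, with 0 false calls. For the interaction 100% of 198 among 8314 were called. A log2 of 2 lies well past the 2-fold bar, so recovery of smaller changes was not tested. The effect of library scaling or exon length on false calls was not tested on these counts.

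The text names 5 genes that check the strain, the 12 largest called increases and decreases without overlap, the 6 largest interactions each way, and from each list the highest and lowest member and further called members by size. *rpl-11.1*, *lea-1*, *act-1*, *nlp-24*, *nlp-29*, *nlp-31* and *ilys-3* were named after their values were seen. The members and lists were chosen with earlier results of these data known. The labels call the 4 libraries of a group replicates without naming separate cultures. The study states 4 biological replicates for AL and DR worms and does not describe those of the mutant. The p-values and SEs of limma rest on the spread within groups, pooled for each gene over all libraries of both mRNA pools, with a trended prior. They do not measure the spread of the mutant and DR translated libraries alone. In the mutant the spread between libraries may be technical. Reads were counted without strand, and 37 of the 184 genes named by rule share exon bases with another gene.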

Additional observations from a re-analysis of the deposited data

Results flagged for a closer look

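Groups of 4 libraries were tested for the strain checks and the genes with the largest differences or interactions. The rRNA share, the composition factor and the reads on genes were tested as well. The lowest or highest value lay far from the other 3 in 5 of 82 groups tested, and chance gives about 1 in 20. These were *H39E23.3* at 0.340 CPM and *ZK355.3* at 0 CPM, both lowest in replicate 2 of DR. *F55G11.4* was highest in replicate 1 of DR at 13.995 CPM. In *daf-2;rsks-1*, *spp-9* was highest in replicate 1 at 587 CPM and *icmt-1* lowest in replicate 3 at 149 CPM.

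The difference between *daf-2;rsks-1* and DR differed between the mRNA pools, by the test of the interaction in limma, for 205 genes that were relatively higher on polysomes and 441 that were relatively lower. The largest interactions upward were *adpr-1* at 2.86, *pha-1* at 2.25, *ppfr-4* at 2.16, *D1086.9* at 2.14, *denn-4* at 2.14 and *Y59A8B.21* at 2.14 on the log2 scale. The largest downward were *ilys-5* at -3.54, *clec-86* at -3.53, *Y51F10.7* at -2.77, *spp-4* at -2.73, *Y110A2AL.4* at -2.60 and *asp-14* at -2.48.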

How the results depend on the processing

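With plain CPM 1538 genes were called higher and 323 lower in translated mRNA, with no filter on low values 1746 and 1317 of 18967 tested, and with a mean of at least 20 CPM 439 and 455 of 6336. Polysome-specific differences numbered 669 higher and 180 lower with plain CPM, 433 and 790 with no filter, and 351 higher and 313 lower with TMM. Leaving out 1 library gave 708 to 746 higher and 681 to 722 lower genes, and 199 to 237 and 433 to 464 polysome-specific ones. The difference in the share of rRNA reads ran from -12.88 to -9.737 percentage points without 1 library, each with an exact permutation p of 0.05714, the smallest that 3 against 4 libraries allow. edgeR called 740 genes higher and 726 lower. Of the log2 values of named genes under all alternatives, 4110 stayed called or stayed not called, 30 gained and 33 lost the call. Of the values called in the main fit 0 reversed direction. Changes of sign in genes not called were not counted. Same-numbered libraries of the groups did not deviate together (r from -0.0189 to 0.0674), and with the replicate number as a block 719 genes were called higher and 694 lower, with 205 and 441 polysome-specific differences, the same counts as without it. The 2-fold bar, depth and pseudocount limit genes near 0 CPM, whose fold is uncertain.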

Other observations

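Transcripts of sperm and embryos, which few or none of the tested genes represent, were scarce in both groups. Major sperm protein genes, the main cytoskeletal component of sperm, had 0 of 31 members tested and summed to 3.03 to 5.28 CPM in translated mRNA of *daf-2;rsks-1*, 10.6 to 13.7 CPM under DR and 45.6 to 52.2 CPM on AL. Sperm markers include these genes, and 31 of the 34 were under 1 CPM in both groups. They summed to 6.55 to 8.96 CPM in the mutant, 11.8 to 14.6 CPM under DR and 46.0 to 53.7 CPM on AL. Markers of early embryos summed to 43.3 to 51.5 CPM in the mutant, 31.1 to 41.5 CPM under DR and 100 to 114 CPM on AL, so both groups lay below AL.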
